A study of Mus musculus with 16 samples.

Results

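Lipid-associated macrophages are tissue macrophages that collect around dying or lipid-laden adipocytes in obesity, take up lipid and debris through the receptor Trem2, and switch on genes for lipid handling, lysosomes and matrix. The state has been described mostly in white fat. In brown adipose tissue (BAT), the heat-producing fat whose adipocytes carry Ucp1, macrophages are a minor population that clears damaged cell material. The 10 genes described here, of 49066 genes in the transcriptome table, are a set commonly used for this state: *Trem2*, *Tyrobp*, *Gpnmb*, *Cd9*, *Lgals3*, *Cd68*, *Spp1*, *Capg*, *Itgax* and *Lyz2*. They were selected on measured values, because macrophage genes including *Cd68* were already known to be higher in KO than in WT males of this series. Their male values, and everything that contains them, are therefore given as a description without a test. The female comparison used other libraries and was tested, although its results for macrophage genes as a group were known as well.

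The samples were whole BAT of WT and KO mice on the C57BL6/J background, 4 of each genotype in each sex. KO (GDF15 BKO) mice carried *Gdf15* fl/fl and a Cre driven by the *Ucp1* promoter, which deletes *Gdf15*, a stress-induced cytokine, in thermogenic adipocytes. WT mice were littermates homozygous for the floxed *Gdf15* alleles without Cre, so all groups shared the floxed alleles. All mice received a diet with 60% of calories from fat for 12 weeks from 6 weeks of age and were 18 weeks old. The comparison addressed whether the tissue differs when its adipocytes cannot make GDF15, in each sex. Polyadenylated RNA was sequenced, and abundance is given in TPM, a unit in which reads are divided by transcript length and every library has the same sum. How many reads each value rests on is unknown, and precision rests on the spread between the 4 mice of a group. In such bulk tissue, fewer or more macrophages and less or more RNA of a gene per macrophage cannot be told apart.

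As a check of the labels, the brown fat gene *Ucp1* lay between 2353 and 4423 TPM in all 16 libraries. The deleted gene *Gdf15* ranged from 0.368 to 3.81 TPM in the WT males and from 0.0801 to 0.272 TPM in the KO males, with no overlap (log2(TPM + 0.5), two-sided exact permutation, p = 0.0286, the smallest possible for 4 against 4). Among females it ranged from 0.0622 to 0.311 TPM in WT and from 0 to 0.0794 TPM in KO, and 1 KO mouse overlapped the WT range (two-sided exact permutation, p = 0.0571). Mitochondrial transcripts took 34.5 to 59.8% of the TPM. Female WT replicate 4 stood apart, with 16.5% of its TPM in 1 transcript that the gene annotation did not match, and only 82.3% of its TPM matched to genes, against 99.5% or more elsewhere. Genes of skeletal muscle summed to between 1.92 and 3842 TPM, with wide ranges in every group (16.4 to 1673 in male WT, 8.94 to 3842 in male KO, 1.92 to 1143 in female WT and 6.17 to 3443 in female KO), and the part of this in the results was not tested.

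The 10 genes fall into 4 roles. *Trem2* is a lipid- and lipoprotein-sensing surface receptor of myeloid cells, and *Tyrobp* encodes DAP12, the membrane adaptor that passes its signal on. *Itgax* (CD11c, an integrin subunit) and *Cd9* (a tetraspanin) are other surface proteins. *Lyz2* (lysozyme), *Cd68* (a glycoprotein of late endosomes and lysosomes) and *Gpnmb* (a transmembrane glycoprotein of the lysosomal system) belong to degradation. *Lgals3* (galectin-3, a sugar-binding lectin), *Spp1* (osteopontin, a secreted matrix protein) and *Capg* (a cap of actin filaments) act outside the cell or on its skeleton.

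RefSeq promoters (250 bases before to 50 after the start; GRCm38.p6) were found for 9 of the 10 genes. These 5 are shown because they belong to the 3 genes with the largest male KO-to-WT difference (*Lgals3*, *Gpnmb* and *Trem2*), to the lysosomal marker *Cd68* and to the most abundant member, *Lyz2*. They lie at chr17:48346151-48346450 (plus strand, *Trem2*), chr6:49036268-49036567 (plus, *Gpnmb*), chr14:47373610-47373909 (plus, *Lgals3*), chr11:69666121-69666420 (minus, *Cd68*) and chr10:117282223-117282522 (minus, *Lyz2*), and each is written 5′ to 3′ along its gene. Capitals mark matches on either strand to GAGGAA and GGAAGT, purine-rich cores of the ETS family to which the macrophage factor PU.1 belongs (the 2 overlap within GAGGAAGT, which holds both), and to TGANTCA, the AP-1 sequence.
Trem2: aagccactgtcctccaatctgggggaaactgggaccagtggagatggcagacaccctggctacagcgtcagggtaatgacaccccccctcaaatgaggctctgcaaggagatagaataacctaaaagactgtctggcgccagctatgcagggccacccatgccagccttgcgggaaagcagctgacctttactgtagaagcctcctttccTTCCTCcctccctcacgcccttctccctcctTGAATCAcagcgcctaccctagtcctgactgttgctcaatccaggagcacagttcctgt
Gpnmb: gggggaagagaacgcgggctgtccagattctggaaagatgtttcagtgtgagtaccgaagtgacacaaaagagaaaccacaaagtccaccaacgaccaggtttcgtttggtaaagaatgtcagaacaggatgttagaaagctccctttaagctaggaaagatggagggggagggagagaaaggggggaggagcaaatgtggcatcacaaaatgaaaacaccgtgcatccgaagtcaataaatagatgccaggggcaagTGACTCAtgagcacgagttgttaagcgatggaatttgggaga
Lgals3: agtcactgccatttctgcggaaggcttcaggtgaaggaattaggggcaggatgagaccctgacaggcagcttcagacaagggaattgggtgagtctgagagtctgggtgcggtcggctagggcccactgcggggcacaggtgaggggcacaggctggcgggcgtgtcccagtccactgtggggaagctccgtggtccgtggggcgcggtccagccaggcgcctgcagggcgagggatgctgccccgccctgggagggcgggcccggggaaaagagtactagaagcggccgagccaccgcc
Cd68: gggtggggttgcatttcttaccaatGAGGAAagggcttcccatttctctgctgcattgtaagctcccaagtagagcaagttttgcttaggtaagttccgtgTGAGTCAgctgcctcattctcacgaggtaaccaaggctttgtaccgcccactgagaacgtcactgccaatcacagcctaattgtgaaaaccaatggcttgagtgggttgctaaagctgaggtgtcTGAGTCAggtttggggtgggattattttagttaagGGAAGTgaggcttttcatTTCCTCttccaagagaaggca
Lyz2: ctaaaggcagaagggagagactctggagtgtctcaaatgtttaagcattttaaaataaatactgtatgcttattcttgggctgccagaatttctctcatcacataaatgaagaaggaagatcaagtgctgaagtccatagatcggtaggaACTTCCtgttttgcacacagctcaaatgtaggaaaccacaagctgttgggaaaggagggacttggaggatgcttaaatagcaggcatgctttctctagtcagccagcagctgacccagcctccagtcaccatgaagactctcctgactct

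Of the 9 members with a promoter, 6 held GAGGAA or GGAAGT, as did 43.4% of the 32851 promoters of the same length in the reference. Members are counted by gene and the reference by promoter. *Spp1* had 2 promoters, and only promoter 1 held these sequences. TGANTCA was in 4 of the 9 (*Trem2*, *Gpnmb*, *Cd68* and *Itgax*) and in 7.81% of all promoters. The E-box CACGTG, searched in the same way, was in none of the 9 and in 7.15% of all. The *Cd68* promoter above held 2 AP-1 and 3 purine-rich matches, whereas the *Lgals3* window held none of these letters. Matches are descriptions of the sequence and were not tied to the expression values.

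Because TPM are divided by length, the members can be ordered by level. Over the 16 libraries *Lyz2* was highest, with a mean of 40.9 TPM and a range of 19.6 to 73.5. *Tyrobp* (mean 10.2 TPM), *Lgals3* (8.16), *Cd9* (7.61), *Cd68* (5.19) and *Capg* (4.67) followed, and their ranges overlapped. The order of these 5 changed between groups: in male KO mice *Lgals3* (17.6 TPM) was above *Tyrobp* (15.5), in male WT mice *Cd9* (5.35) was above *Lgals3* (5.05), and in female KO mice *Cd9* (10.03) was above *Tyrobp* (8.85). *Gpnmb* (1.48), *Trem2* (0.78), *Itgax* (0.509) and *Spp1* (0.369) were low, and each overlapped the next in the order. *Lyz2* alone lay clear of its neighbour in the order, its lowest library (19.6 TPM) being above the highest value of *Tyrobp* (17.7 TPM). It was not clear of *Lgals3*, which reached 25.2 TPM in male KO replicate 4. The receptor *Trem2*, like *Itgax* and *Spp1*, thus rests on low values, whereas its adaptor does not.

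**Figure D1:**
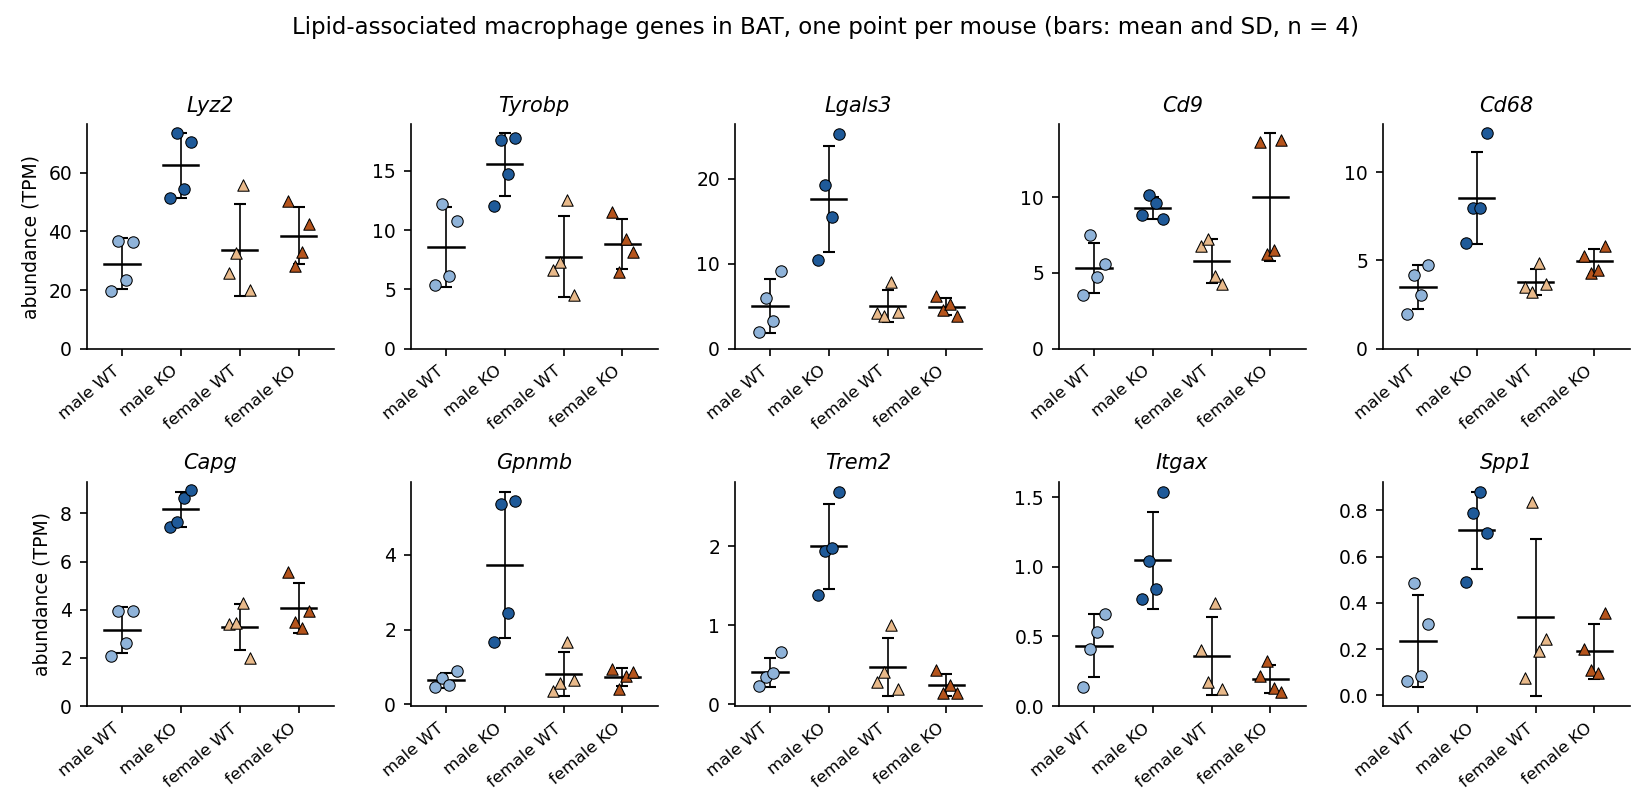
TPM of each member (vertical axes, 1 scale per gene) in the 4 groups of sex and genotype (horizontal axes). Points are mice, horizontal bars the group mean and whiskers the SD (n = 4). Male KO mice have the highest mean for 9 of the 10 genes, the exception being *Cd9*.

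Male KO mice had more of every member than male WT mice, with ratios of mean TPM from 1.73 (*Cd9*) to 5.78 (*Gpnmb*). The KO and WT ranges did not overlap for 9 of the 10 genes, all except *Tyrobp*. Of the 12176 genes tested in males, 9.55% had such non-overlapping groups with KO above WT, and 79.9% had a positive fold change (51.1% under median-of-ratios scaling, where the unadjusted p was below 0.05 for 1012 higher and 876 lower genes, in place of 2150 and 130). The median log2 fold change of the 10 members was 1.16, beside 0.16 for all genes tested. Since these values chose the members, nothing is read from the counts. Of the members, 8 passed the minimum mean of 1 TPM, and *Trem2* and *Gpnmb* did so only through their KO libraries.

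*Trem2* had 0.225, 0.344, 0.392 and 0.663 TPM in the male WT mice and 1.39, 1.94, 1.98 and 2.69 TPM in the male KO mice, a ratio of means of 4.92 and a log2 fold change of 1.46 ± 0.23 (SE). No KO value reached down to the WT range. Its adaptor *Tyrobp* had 5.34, 12.2, 6.14 and 10.7 TPM in male WT and 12.1, 17.5, 14.7 and 17.7 TPM in male KO mice (log2 fold change 0.88 ± 0.26, SE). The groups touched, because the lowest KO mouse was just under the highest WT mouse. *Tyrobp* is used by several receptors of myeloid and natural killer cells besides Trem2.

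*Lgals3* showed the largest log2 fold change of the set on this scale, 1.82 ± 0.42 (SE). Its male WT mice had 1.98, 5.93, 3.22 and 9.09 TPM and its male KO mice 10.5, 19.2, 15.5 and 25.2 TPM. The spread was wide in both groups, and the lowest KO mouse lay only slightly above the highest WT mouse. *Capg* was the tightest of the male differences, at 2.07, 3.95, 2.63 and 3.97 TPM in WT and 7.44, 7.66, 8.62 and 8.97 TPM in KO mice (log2 fold change 1.28 ± 0.19, SE). All 4 KO mice lay within a narrow band far above the WT mice. *Spp1* stayed under 1 TPM in every library, with 0.0631 to 0.486 TPM in male WT and 0.49 to 0.878 TPM in male KO mice. The ranges nearly met, and the log2 fold change of *Spp1* moved from 0.75 to 1.46 when a pseudocount of 0.1 replaced 0.5. Osteopontin RNA was thus the scarcest of the set in this tissue.

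Among the degradative genes, *Gpnmb* had 0.46, 0.713, 0.508 and 0.899 TPM in male WT and 1.66, 5.36, 2.44 and 5.44 TPM in male KO mice (log2 fold change 1.77 ± 0.34, SE). KO replicates 2 and 4 formed a high pair and KO replicates 1 and 3 a lower one, still above all WT mice. *Cd68* had 1.97, 4.19, 3.05 and 4.76 TPM in WT and 5.98, 7.99, 7.94 and 12.2 TPM in KO mice (log2 fold change 1.19 ± 0.27, SE). *Lyz2*, the most abundant, had 19.6, 36.8, 23.5 and 36.3 TPM in WT and 51.4, 73.5, 54.3 and 70.5 TPM in KO mice (log2 fold change 1.12 ± 0.23, SE). In both genes the groups were apart, and WT replicates 1 and 3 were the lowest pair.

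The surface proteins *Cd9* and *Itgax* had male log2 fold changes below the median of the members. *Cd9* had 3.57, 7.47, 4.76 and 5.59 TPM in WT and 8.81, 10.1, 9.59 and 8.57 TPM in KO mice (log2 fold change 0.78 ± 0.19, SE). *Itgax* ranged from 0.136 to 0.664 TPM in WT and from 0.765 to 1.54 TPM in KO mice (log2 fold change 0.73 ± 0.24, SE, and 1.18 with a pseudocount of 0.1). KO and WT mice did not overlap for either gene. *Cd9* is also made by adipocyte progenitors, endothelial cells and other cells of fat, and is the least macrophage-specific of the set.

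The same mice were at the ends of their groups for most members. Male WT replicate 1 was the lowest WT mouse for all 10 genes, male KO replicate 1 the lowest KO mouse for 9, and male KO replicate 4 the highest for 7. Male WT replicate 1 also had the highest mitochondrial share of the 16 libraries, 59.8% of its TPM. Without this library 70.2% of all genes tested in males were higher in KO, in place of 79.9%. The part of the mitochondrial share in its low values was not tested. Leaving out each male library in turn kept the median log2 fold change of the 10 members between 0.97 and 1.29. The names of the libraries begin with a prefix whose meaning is not stated. Within prefix 9, the only one with male mice of both genotypes (3 KO and 2 WT), all 10 members were higher in KO. Their median log2 difference was 1.16, with a range of 0.56 to 1.98. These libraries took part in the choice of the members, so this is a description and no check of the prefix. With the prefix as covariate, 77.9% of the 12176 genes tested in males were higher in KO, with a median log2 fold change of 0.14. In males limma called 1 of the 12176 genes at an adjusted p under 0.05 (0.00821%), with 2280 at an unadjusted p under 0.05. The called gene, named here after its value was seen, was *Mfap5*, a microfibril protein of the matrix and no member.

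Female KO mice did not show this pattern, and no member had non-overlapping groups. No member passed the test in females. That does not set the sexes apart, because the 1 gene called in males was no member either. The median log2 fold change of the 10 members was 0.13, beside 0.10 for all 12141 genes tested in females, and 6 members were higher and 4 lower in KO. Limma called 0 of the 6 members that passed the TPM minimum and 0% of all genes, with 2 members and 2075 genes at an unadjusted p under 0.05. Of all genes, 4.89% had every KO library above every WT library.

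*Trem2* was at 0.287, 0.403, 1.01 and 0.189 TPM in the female WT mice and at 0.439, 0.145, 0.247 and 0.144 TPM in the female KO mice. The female groups overlapped, with the highest value in a WT mouse (log2 fold change -0.34 ± 0.25, SE; two-sided exact permutation, p = 0.257). *Gpnmb* had 0.348, 0.569, 1.68 and 0.662 TPM in female WT and 0.932, 0.397, 0.753 and 0.875 TPM in female KO mice (log2 fold change -0.01 ± 0.31, SE; two-sided exact permutation, p = 0.971). For *Spp1* and *Itgax*, also under the TPM minimum, the log2 fold changes were -0.22 and -0.27 (two-sided exact permutation, p = 0.6 and 0.343). None of these 4 low members passed a threshold of 0.05, and their values stayed at or under 1.68 TPM in every female.

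*Lgals3* had 4.2, 3.83, 7.84 and 4.29 TPM in female WT and 6.22, 4.59, 5.22 and 3.82 TPM in female KO mice. The means were 5.04 and 4.96 TPM, and the log2 fold change of 0.01 ± 0.23 (SE; limma adjusted p = 0.979) turned to -0.073 under median-of-ratios scaling. *Capg* had a log2 fold change of 0.28 ± 0.22 (SE; limma adjusted p = 0.502), *Lyz2* of 0.27 ± 0.31 (SE; limma adjusted p = 0.643) and *Tyrobp* of 0.24 ± 0.28 (SE; limma adjusted p = 0.649). *Lyz2* shows the overlap, with 25.7, 32.8, 55.8 and 20 TPM in female WT and 50.2, 28.3, 33 and 42.6 TPM in female KO mice.

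*Cd9* and *Cd68* came closest to a female difference. *Cd9* had 6.79, 7.25, 4.8 and 4.29 TPM in female WT and 13.6, 6.22, 6.52 and 13.7 TPM in female KO mice (log2 fold change 0.68 ± 0.29, SE; limma adjusted p = 0.286). KO replicates 1 and 4 were far above the WT range, and KO replicates 2 and 3 lay inside it. *Cd68* had 3.48, 3.19, 4.85 and 3.65 TPM in female WT and 5.24, 4.29, 4.49 and 5.83 TPM in female KO mice (log2 fold change 0.35 ± 0.15, SE; limma adjusted p = 0.284). For *Cd68* the direction depended on which transcripts were summed, as given with the isoforms.

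Among females, WT replicate 3 was the highest WT mouse for 8 members, and WT replicate 4 the lowest for 6. Without WT replicate 3 the median log2 fold change of the 10 members was 0.34, and without WT replicate 4, the library that stood apart, it was -0.0034. Within prefix 8b (1 KO and 3 WT mice) the median was 0.02 with 5 of 10 members higher in KO, and within prefix 10 (1 KO and 1 WT mouse) it was 0.58 with 9 of 10 higher. These values rest on single mice and have no test.

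**Figure D2:**
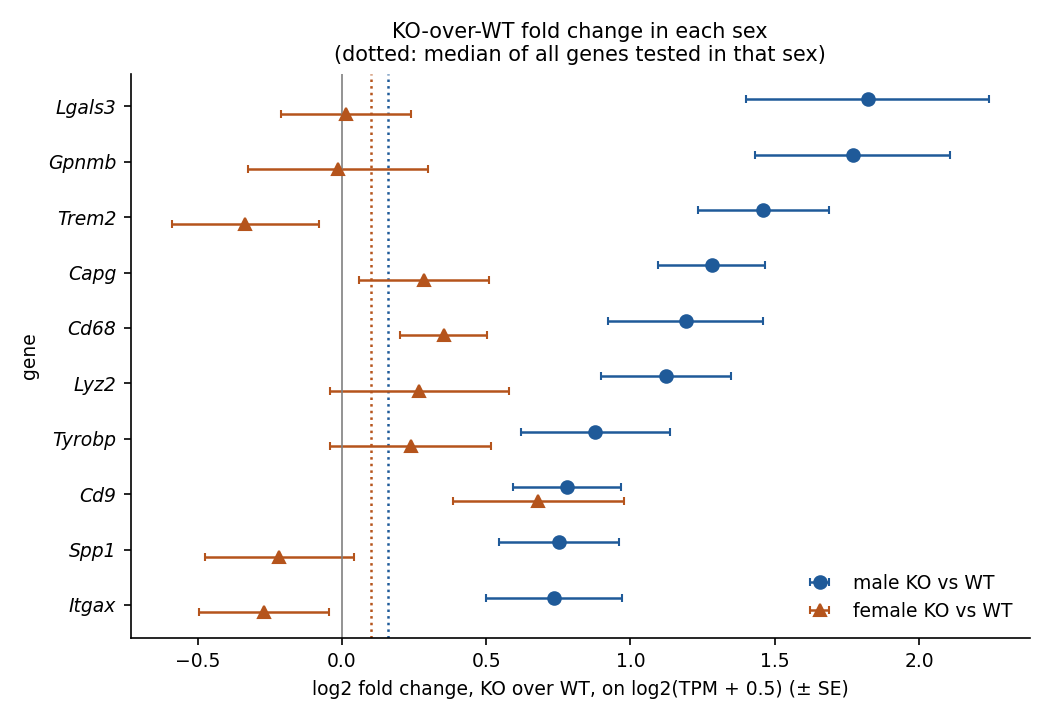
Log2 fold change of KO over WT (horizontal axis, on log2(TPM + 0.5), points with SE) for each member (vertical axis) in males (circles) and females (triangles). Dotted lines mark the median of all genes tested in each sex, 0.16 in males and 0.10 in females. All 10 male values lie to the right of their line, and the female values scatter between -0.34 and 0.68.

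The KO effect was larger in males than in females for all 10 members in the fit over all 16 libraries. The male-minus-female difference of the log2 fold changes was 1.81 ± 0.51 (SE) for *Lgals3*, 1.80 ± 0.35 for *Trem2* and 1.78 ± 0.49 for *Gpnmb*. It was 1.0 for *Itgax*, 0.997 for *Capg*, 0.97 for *Spp1*, 0.86 for *Lyz2*, 0.84 for *Cd68* and 0.64 for *Tyrobp*. *Cd9* was the exception, with a difference of 0.10 ± 0.37 (SE) whose sign turned in 4 of 16 fits that left out 1 library. The median over the members was 0.98, beside 0.06 over the 12210 genes tested, of which limma called 0% (1735 at an unadjusted p under 0.05). The differences contain the male values that chose the members, so none is given a test.

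In WT mice the values of males and females overlapped for all 10 members; among the 12042 genes tested, 1.92% did not overlap. The WT male-minus-female log2 difference lay between -0.15 (*Lyz2*) and 0.15 (*Tyrobp*) for all 10, with SEs from 0.23 to 0.40. Their median was -0.12, beside 0.05 for the 12042 genes tested, 0.0664% of which were called. The male KO values did not overlap those of female KO mice for 9 members, beside 18.1% of all genes with a mean of at least 1 TPM, nor those of female WT mice for 6, beside 20.3%. Male WT and female KO values overlapped for every member (5.69% of all genes did not). The male KO libraries took part in the choice of the members, so nothing is read from these counts. Male KO was the group with the highest mean for every member but *Cd9*, whose highest mean was in female KO mice (10.03 TPM, against 9.28 TPM in male KO).

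Over the 16 libraries together, 1 protein-coding transcript held most of each gene's TPM, from 68.3% for *Trem2* (Trem2-201) to 100% for *Lyz2*, which has a single annotated transcript. In single groups the share was lower for some members at low levels, with 39.1% for Spp1-201 in male WT, 50% for Itgax-201 in female WT and 41.6% for Trem2-201 in female KO mice. Trem2-201 took 79.0% of the *Trem2* TPM in male KO mice but 33.6% in male WT mice, where its mean was 0.136 TPM, a level too low to read a shift from. Cd68-203 is a processed transcript, annotated without a coding sequence, and was looked at after its values were seen. It had 0.317, 0.329, 0 and 0.927 TPM in female WT and 1.51, 1.54, 1.30 and 2.36 TPM in female KO mice, so that KO was above WT in all 4. Of all genes tested in females, 4.89% had such groups, and the share among transcripts is not given here. Because the transcript was picked from many, nothing is read from this. In males its ranges overlapped, with 0 to 0.691 TPM in WT and 0.00717 to 1.52 TPM in KO mice. The coding Cd68-201 had 3, 2.64, 4.85 and 2.72 TPM in female WT and 3.05, 2.35, 3.18 and 2.89 TPM in female KO mice, and the groups overlapped. With coding transcripts only, the female log2 fold change of *Cd68* was -0.02 in place of 0.35. In males Cd68-201 went from 2.88 ± 1.07 TPM (SD, n = 4) in WT to 7.41 ± 1.79 TPM (SD, n = 4) in KO mice. Reads that fit several transcripts are shared out by the quantification, so transcript values are less certain than gene sums.

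Other macrophage genes were compared through lists taken from general knowledge of these cells, chosen with the members' values known. Of 15 genes shared by most macrophages (such as the complement genes *C1qa*, *C1qb* and *C1qc* and the Fc receptor subunit *Fcer1g*), 13 were tested in males, and 12 were higher in KO (11 under median-of-ratios scaling), with a median log2 fold change of 0.80 and non-overlapping groups in 6. Their sum was 37.6 to 79.3 TPM in male WT and 85.5 to 124 TPM in male KO mice, and none was called. *C1qc*, a subunit of the first complement component, had 8.55 TPM on average in male WT (5.21 to 11.4) and 18.4 TPM in male KO mice (15.4 to 21.7). All 7 tested genes of 10 for resident macrophages were also higher in male KO, with a median of 0.78. Of all 12176 genes tested in males, 79.9% were higher in KO (51.1% under median-of-ratios scaling), and 9.55% had non-overlapping groups with KO above WT. *Cbr2*, a carbonyl reductase of resident macrophages, went from 3.16 to 7.73 TPM and *Folr2*, a folate receptor, from 1.37 to 3.41 TPM in mean level. In females 11 of 12 tested general macrophage genes (9 under median-of-ratios scaling) and 4 of 7 resident genes (3 under that scaling) were higher in KO, with medians of 0.28 and 0.05, and none was called. Of all 12141 genes tested in females, 62.7% were higher in KO (51.7% under median-of-ratios scaling), with a median of 0.10. *Folr2* had a mean of 2.05 TPM in female WT and 1.36 TPM in female KO mice (log2 fold change -0.45 ± 0.25, SE; limma adjusted p = 0.377). The resident genes *Pf4*, *Cbr2* and *Clec10a* had positive female log2 fold changes, of 0.29, 0.50 and 0.59.

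Set against these lists within each mouse, the members stood higher in male KO mice than in the other groups. The mean log2(TPM + 0.5) of the 10 members minus that of the 15 general genes was -0.16, -0.12, -0.01 and 0.29 in male WT mice and 0.40, 0.42, 0.57 and 0.62 in male KO mice. It was -0.07, 0.19, 0.00 and -0.10 in female WT mice and 0.01, -0.17, -0.06 and -0.07 in female KO mice. The 4 male KO mice were above the other 12. Against the 10 resident genes the difference was 0.62 to 1.23 in male WT, 1.26 to 1.54 in male KO, 0.57 to 0.98 in female WT and 0.65 to 0.93 in female KO mice. Here too the male KO mice were above the others, though male WT replicate 2, at 1.23, came close to the lowest of them. The male values chose the members and not the other lists, so these differences are descriptions.

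**Figure D3:**
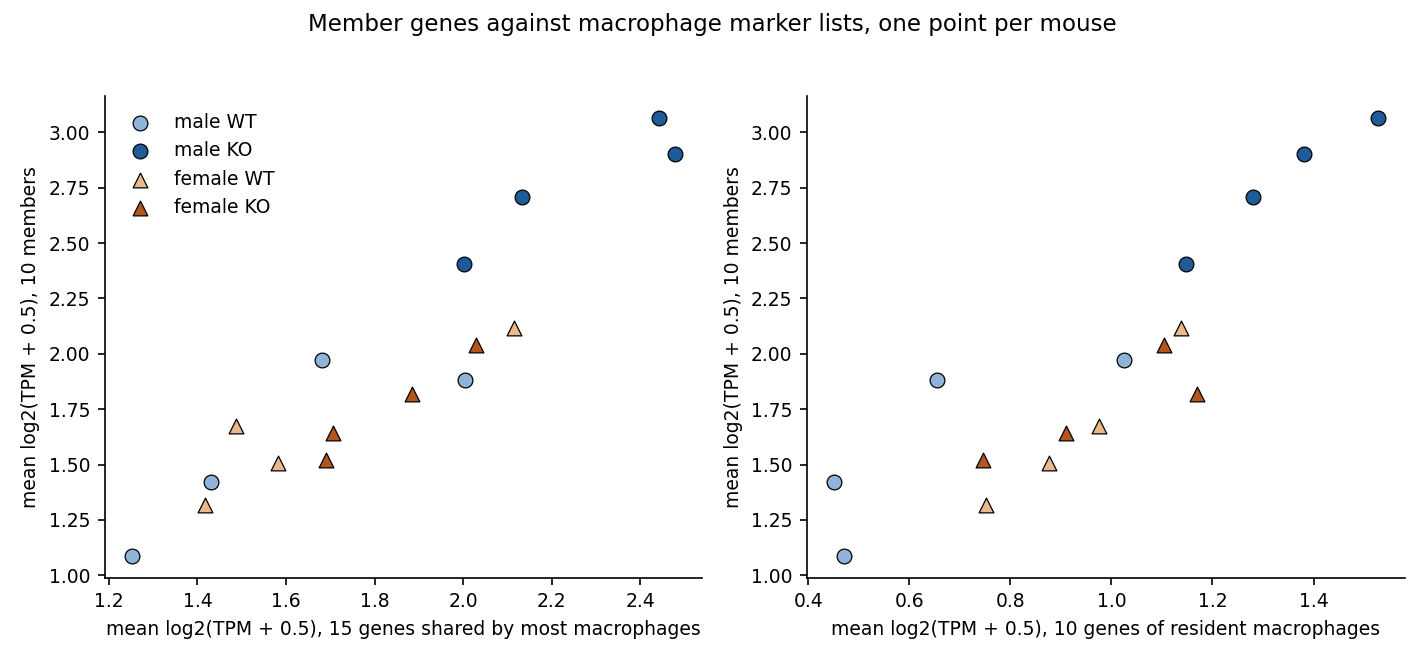
Mean log2(TPM + 0.5) of the 10 members (vertical axes) against that of 15 general macrophage genes (left, horizontal axis) and 10 resident macrophage genes (right) for each of the 16 mice. Circles are males and triangles females, with KO in darker colour. The 4 male KO mice lie between 2.41 and 3.06 on the vertical axis, above all others, and on the horizontal axes the lowest of them overlap other groups.

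The genes around Trem2 signalling and lipid handling had smaller differences. Of 15 genes that bind Trem2, cut it from the membrane or carry its signal, 7 were tested in males, 6 of them higher in KO, with a median log2 fold change of 0.38, and none was called. *Apoe*, an apolipoprotein and Trem2 ligand that adipocytes make as well, was the exception, with 555 TPM in male WT and 438 TPM in male KO mice (log2 fold change -0.28 ± 0.27, SE). The sheddases *Adam17* and *Adam10* had log2 fold changes of 0.38 and 0.29, and the lipid phosphatase *Inpp5d*, which damps Trem2 signals, of 0.58. In females 5 of 6 tested genes had positive values, with a median of 0.22, and *Apoe* had a log2 fold change of 0.77 ± 0.33 (SE; limma adjusted p = 0.289). Of 20 genes for lipid handling and lysosomes, 19 were tested in males and 14 were higher in KO (12 under median-of-ratios scaling), with a median of 0.21, close to the 0.16 of all genes. Its most abundant genes, *Fabp4*, *Cd36* and *Lpl*, are adipocyte genes as well, and had male log2 fold changes of -0.09, 0.19 and -0.16. The lysosomal protease *Ctsd* had 0.30 ± 0.14 (SE). In females 11 of 16 were higher (8 under median-of-ratios scaling), with a median of 0.09. None of these genes was called in either sex. Of all genes tested, 79.9% were higher in KO in males and 62.7% in females (51.1% and 51.7% under median-of-ratios scaling).

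Markers of other cells of the tissue are given beside the members because bulk levels follow composition. Genes of other leukocytes had low summed levels. Monocyte genes summed to 3.45 to 6.59 TPM in male WT and 4.28 to 6.28 TPM in male KO mice, dendritic cell genes to 5.03 to 9.90 and 7.88 to 8.23 TPM, neutrophil genes to 3.77 to 15.9 and 4.25 to 6.97 TPM, and lymphocyte genes to 3.54 to 10.2 and 3.58 to 5.64 TPM. These sums overlapped between male WT and KO mice. Those of the members did not (35.4 to 73.0 against 100.4 to 153.5 TPM), but the male values chose the members, so nothing is read from this. The sums of the general macrophage genes (37.6 to 79.3 against 85.5 to 124 TPM) and of the resident genes (11.9 to 25.8 against 27.0 to 39.7 TPM) did not overlap either. In females the 4 sums lay between 2.73 and 13.1 TPM in every mouse. The 2 monocyte genes tested in males were higher in KO (1 under median-of-ratios scaling), as were 79.9% of all genes. *Ccr2* had a male log2 fold change of 0.50 ± 0.18 (SE) and non-overlapping groups, as did 9.55% of all genes, and *Ly6c2* had 0.08 ± 0.15 (SE). Of the same list *Vcan* and *Plac8*, under the minimum in males, had 0.68 and -0.35. In the neutrophil list 3 of 12 genes were at 0 in all male WT libraries and 2 in all male KO libraries. No lymphocyte gene reached the TPM minimum, and the only tested male neutrophil genes, *S100a8* and *S100a9*, had log2 fold changes of -0.52 and -0.88, whereas *Lcn2* and *Csf3r* of the same list, under the minimum in males, had 0.59 and 0.31.

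Fibroblast genes were higher in male KO mice as well. All 7 tested of 8 were higher in KO, with a median log2 fold change of 0.40 and non-overlapping groups in 3, and they summed to 106.4 to 188.5 TPM in male WT and 221.3 to 230.7 TPM in male KO mice. Of all genes tested, 79.9% were higher in KO in males and 62.7% in females (51.1% and 51.7% under median-of-ratios scaling). In males 9.55% had non-overlapping groups with KO above WT. The collagens *Col1a1* and *Col3a1* went from 7.28 to 17.9 and from 53.5 to 101.4 TPM in mean level. The fibroblast genes *Dcn* and *Dpt* differed less, with male log2 fold changes of 0.25 ± 0.14 (SE) and 0.40 ± 0.31 (SE). In females 6 of 7 were higher (4 under median-of-ratios scaling), with a median of 0.14. White adipocyte genes had a median of 0.52 in males, with 3 of 5 tested higher in KO, and of -0.50 in females, with 0 of 5 higher (sums of 96.3 to 312 TPM in male WT and 187 to 257 TPM in male KO mice), with *Lep*, the hormone leptin, at 54.9 and 100.7 TPM in male WT and KO and at 37.5 and 12.4 TPM in female WT and KO mice. Of the same list *Sncg* had male log2 fold changes of 0.52 ± 0.46 (SE), *Nnat* of -0.13 ± 0.61 (SE) and *Mest* of 0.88 ± 0.62 (SE). Endothelial genes were higher in KO in both sexes (8 of 8 tested in each, 6 in males under median-of-ratios scaling), with medians of 0.29 in males and 0.75 in females. Brown adipocyte genes had medians of -0.05 in males (3 of 11 higher, 1 under median-of-ratios scaling) and 0.24 in females (10 of 11 higher). Schwann cell genes had medians of 0.15 and -0.12, and skeletal muscle genes of 0.44 and 1.14, with SEs from 1.66 to 2.54 for their 4 most abundant genes. None of the genes in these lists was called in either sex, and the part of cell composition in the members' values was not tested.

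**Figure D4:**
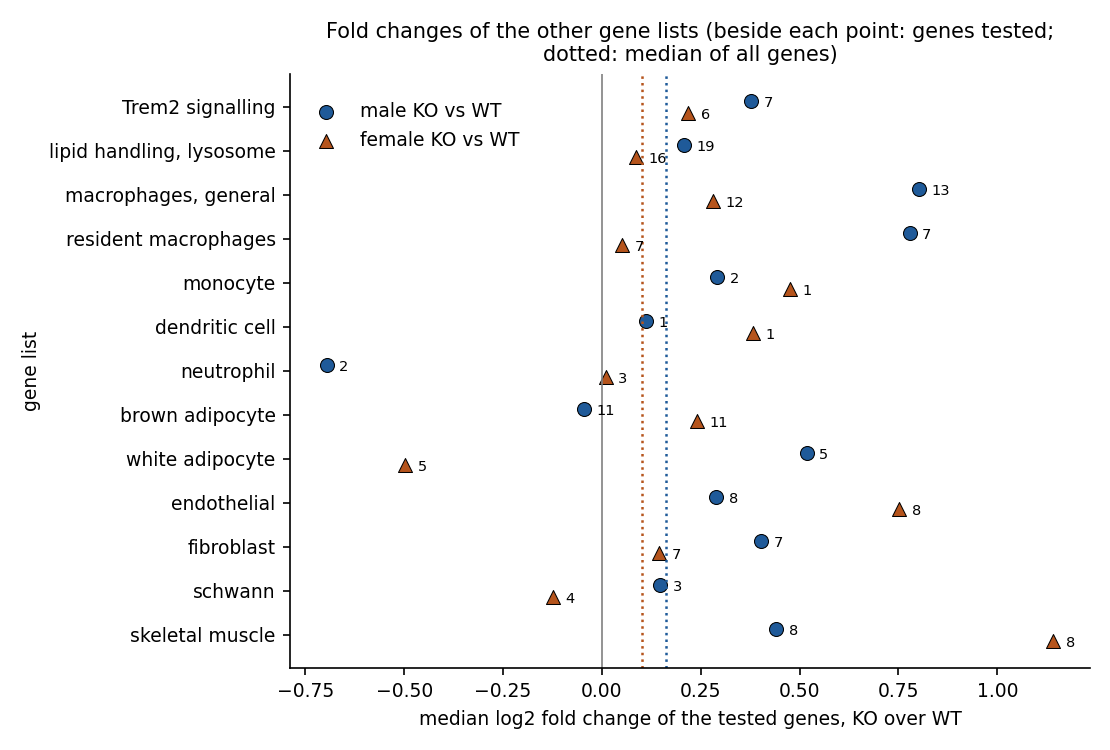
Median log2 fold change of KO over WT (horizontal axis) of the tested genes in each other list (vertical axis), in males (circles) and females (triangles); the number beside a point counts the genes tested, and lymphocyte genes are left out because none was tested. In males the general and resident macrophage lists are farthest to the right, at 0.80 and 0.78, and the neutrophil list is at -0.70.

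Across all 16 libraries the members varied together, *Cd9* least. The closest pair was *Tyrobp* and *Lyz2* (Pearson r = 0.95, Spearman rho = 0.96, n = 16 libraries), followed by *Capg* with *Lyz2* (r = 0.92), *Trem2* with *Gpnmb* (r = 0.92), *Lgals3* with *Cd68* (r = 0.92) and *Itgax* with *Trem2* (r = 0.91). *Tyrobp* and *Lyz2* also held together within groups, with r = 0.95 after the group means were removed. *Spp1* was closest to *Capg* (r = 0.70), and this fell to 0.40 within groups. *Cd9* had a median r of 0.51 to the other members and only 0.15 to *Itgax*. These libraries share the group difference in males and the same scaling, so the correlations describe how alike the patterns are and carry no test.

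Of 12203 candidates, the 9 other genes given here, with the pattern most like the mean z-score of the members, were *C1qc* (r = 0.97), *Ctss* (0.96), *Lcp1* (0.96), *Pirb* (0.94), *C1qb* (0.94), *Sparc* (0.94), *Ccl9* (0.93), *Nckap1l* (0.93) and *Slc11a1* (0.93), against a median r of 0.37 over all candidates. *Ctss*, the lysosomal protease cathepsin S, averaged 4.61 TPM in male WT, 13.6 in male KO, 5.35 in female WT and 4.83 in female KO mice. *Ccl9*, a chemokine, averaged 2.01, 5.94, 1.94 and 1.81 TPM in the same order. *Lcp1* (an actin-bundling protein of leukocytes), *Pirb* (an inhibitory receptor) and *Slc11a1* (a metal transporter of phagosomes) are also known from myeloid cells. *Sparc*, a matrix protein of many cell types, was far more abundant, at 408 TPM in male WT and 603 TPM in male KO mice. With the group means removed, 5 of the nearest 10 stayed among the nearest 10, *C1qc* and *C1qb* in the first places, and under median-of-ratios scaling 7 stayed.

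**Figure D5:**
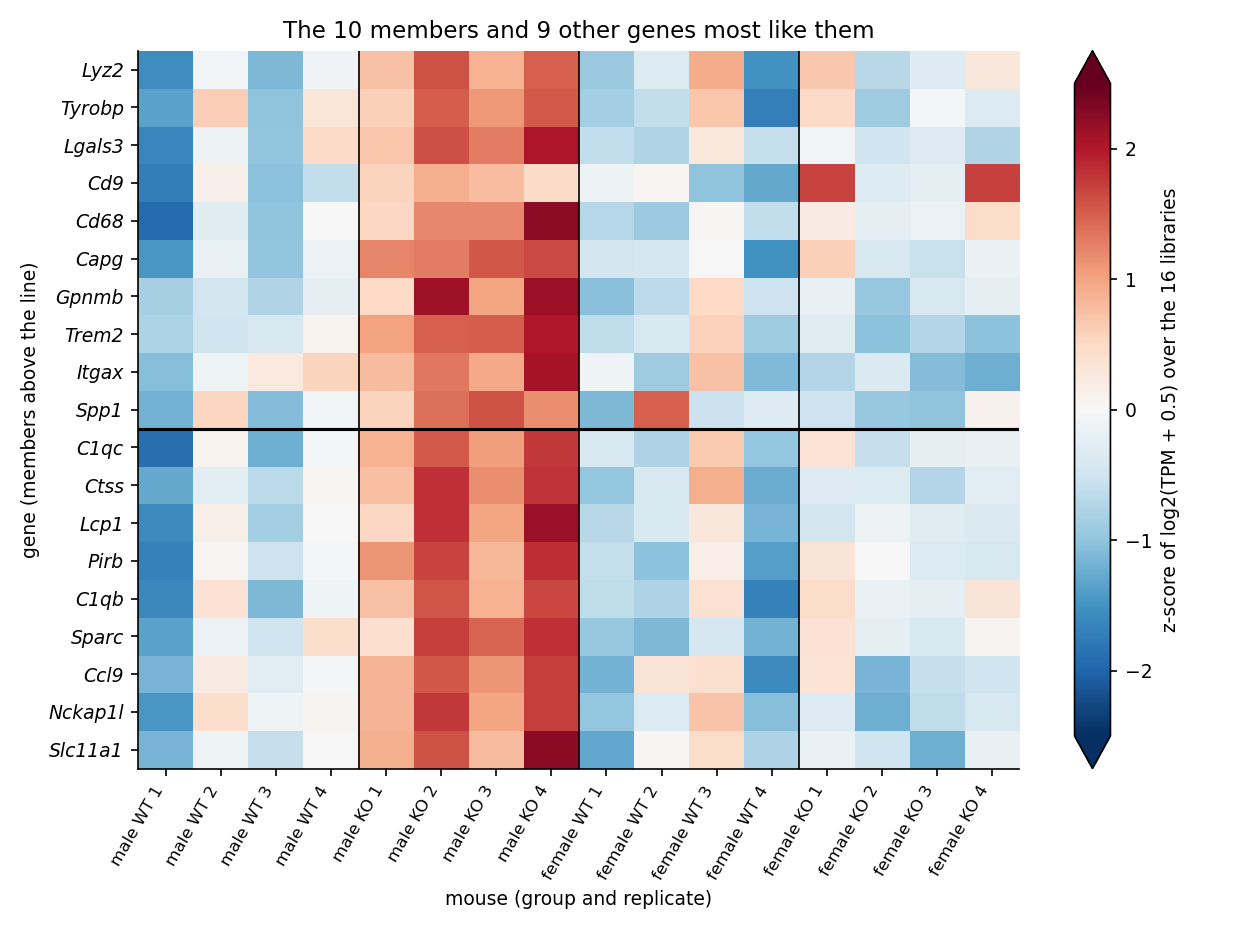
Z-score of log2(TPM + 0.5) over the 16 libraries (colour, blue low and red high) for the 10 members (above the line) and 9 other genes most like them (below), with 1 column per mouse, males first and WT before KO in each sex. The male KO columns are red in every row, and male WT replicate 1 is among the bluest columns.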

How the data were processed

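Stranded polyadenylated RNA libraries of BAT from 16 mice were sequenced single-end. The authors quantified the reads with kallisto 0.46.2 (genome build GRCm39 in the submitters' processing notes; annotation release not given in the sources used here) and deposited transcript-level TPM. The authors' DESeq2 test needs counts and was not run; values were compared as log2(TPM + 0.5), which understates the changes of low genes. Of 137438 transcripts, 135051 matched GENCODE mouse release 21 by identifier without version and were summed per gene symbol (49066 genes); 2387 were left out. Depth per library is unknown, so no counting interval is given.

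Samples were grouped by their labels. Genes whose mean in the compared libraries was at least 1 TPM were tested with limma 3.58.1 (R 4.3.3; eBayes with a trend), with Benjamini-Hochberg adjustment over all of them and a threshold of 0.05. The comparisons were KO against WT in each sex, their difference over 16 libraries, and WT males against WT females. *Gdf15* and members under the minimum in females were compared by an exact two-sided permutation test (SciPy 1.17.1). Replicates were taken as separate mice; where they are not, p-values measure a spread that may be technical. Standard errors of members under the minimum come from the fit without a minimum.

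The members, the 14 other lists (146 genes) and the rule for named genes were chosen with earlier results of these data known. Named genes are the members, *Gdf15*, up to 4 genes of each list with the highest mean TPM, the 10 genes most like the members' mean z-score by Pearson r (1 of them is not reported here), and any other named as chosen after its values were seen. Alternatives were pseudocounts of 1 and 0.1, no minimum or a minimum of 5 TPM, median-of-ratios scaling, TPM outside the mitochondrial genome, protein-coding transcripts only, no trend, a replicate block, the name prefix as covariate, all 16 libraries in one fit, and leaving out each library. The fit was also run on simulated libraries with independent noise for each gene. These held no shift shared by the genes of a library, so they do not bear on such a shift. The labels do not say whether same-numbered WT and KO mice were paired. Correlations of their deviations from the group means ran from -0.11 to 0.35, which cannot exclude a pairing.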

Additional observations from a re-analysis of the deposited data

Results flagged for a closer look

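In all, 44 sets of 4 libraries were examined (the 10 members and *Gdf15* in each group). Of these, 2 held a library whose gap to its nearest neighbour, divided by the range of the set, exceeded Dixon's 95% critical value. Chance gives about 1 in 20 where values are not tied. *Lgals3* in female WT replicate 3 was at 7.84 TPM, beside 3.83 to 4.29 TPM in the other 3 female WT mice. *Gdf15* in female KO replicate 3 was at 0.0794 TPM, with the other 3 female KO mice listed at 0. With such ties the gap equals the range by construction, so the rate does not apply to this flag. No member had all KO mice above WT in one sex and below WT in the other.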

How the results depend on the processing

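In males all 190 recomputed member values kept the direction KO above WT, and the members' median log2 fold change stayed between 0.998 and 1.34 (0.97 to 1.29 with 1 library left out). A changed TPM minimum, no trend, the replicate block and the fit over all 16 libraries leave a log2 fold change as it is by construction. The counts of member values here and below include such settings. Since the male values chose the members, the male count is a description. The number of genes called in males changed from 1 to 2 with a pseudocount of 0.1, 0 without a TPM minimum, 3 under median-of-ratios scaling, 12 (10 higher, 2 lower) with TPM outside the mitochondrial genome, 18 (14 higher, 4 lower) with protein-coding transcripts only, 6 with the prefix covariate and 40, all higher, with all 16 libraries in one fit, and was 0 to 5 with 1 library left out. In females it changed from 0 to 8 with the prefix covariate and 5 with all 16 libraries, and was 0 to 9 with 1 library left out. The difference between the sexes called 1 gene without a trend in place of 0 and 0 to 3 with 1 library left out, and WT males against WT females 3 with a minimum of 5 TPM and 4 with protein-coding transcripts only in place of 8 (5 higher, 3 lower; 6 and 2 under median-of-ratios scaling), and 5 to 11 with 1 library left out. Median-of-ratios scaling moved the male median over all genes tested from 0.16 to 0.0045 on the log2 scale, and that of the members from 1.16 to 0.998. The cause of these changes was not tested. With a replicate block, 0 genes were called in males and 1 in females, and none of the 6 female members tested with it passed the threshold. Whether same-numbered mice were paired is not known (r from -0.09 to 0.35 in males and from -0.11 to 0.15 in females). In males the block lowered the SE of every member, that of *Lgals3* from 0.42 to 0.15. The prefix covariate could not be fitted for WT males against WT females and was not run there.

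Of the 190 recomputed female member values 15 had the other direction, and none of the 117 with an adjusted p (the others were under the TPM minimum) passed the threshold. Female *Lgals3* turned to -0.073 under median-of-ratios scaling, -0.026 with TPM outside the mitochondrial genome and as low as -0.092 (up to 0.229) with 1 library left out, and female *Cd68* to -0.020 with protein-coding transcripts only. The members' median male-minus-female difference was 1.38 with a pseudocount of 0.1 in place of 0.98, and of its 260 member values 256 kept their direction, the others being *Cd9*. The members' median in females was -0.0034 to 0.335 with 1 library left out. Alternatives for *Gdf15*, chosen after seeing the data, kept it lower in KO mice in both sexes. Of the 10 genes most like the members, 5 stayed with deviations from group means. The unknown depth limits members near or under 1 TPM.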
